A study of Mus musculus with 2 samples.

Results

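The Fam19a genes (Fam19a1 to Fam19a5, renamed Tafa1 to Tafa5) encode small secreted proteins of neurons and glia that resemble CC chemokines in sequence. The 5 genes were taken by name and were selected on measured values, their UMI counts by class of nuclei and their ratios between the libraries, so those levels and ratios are given as a description. Of the 5 genes, 4 were measured among 19575 genes: Fam19a1, Fam19a2, Fam19a4 and Fam19a5. Fam19a3 was not analysed here.

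A chemokine is a secreted signal that is read by receptors on other cells, classically to guide their migration. Fam19a proteins carry a signal peptide and conserved cysteines, are made mainly in the nervous system, and act as modulators of synapses and of neuron excitability rather than as classical attractants of leukocytes. Several bind neurexins, the presynaptic adhesion proteins, while Fam19a4 has been linked to the formyl peptide receptor Fpr1, to Lrp1 and to pain after injury, and Fam19a5 to the receptors S1pr2 and Lrrc4b.

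Nuclei came from lumbar dorsal cord (L3-L5) of adult mice of the genotype Pdyn-IRES-Cre(+/-); R26-LSL-Sun1.eGFP(+/-), in which Cre driven from the prodynorphin locus leaves a green nuclear envelope in every cell that has ever made prodynorphin. The reporter therefore marks a lineage and not current prodynorphin expression, and all nuclei of both groups carry it. GFP-sorted nuclei of 8 mice of either sex were pooled into 1 library per group. The naive pool held littermates that received only isoflurane at postnatal day 3, and the injured pool held mice whose left plantar hindpaw was incised at postnatal day 3. The design asks what differs in the adult lineage after an early injury.

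The naive library held 4063 nuclei with 30602222 UMIs (unique molecular identifiers, one per captured RNA) and the injured library 3547 nuclei with 32934588 UMIs, at medians of 6955 and 8464 UMIs per nucleus. Only 3 barcodes occurred in both libraries. Classes were rebuilt from transmitter genes, with the Fam19a genes kept out of the clustering. Inhibitory-like nuclei, set by genes of GABA and glycine release (Gad1, Gad2, Slc32a1, Slc6a5), numbered 2499 naive and 2116 injured, and excitatory-like nuclei, with the glutamate transporter Slc17a6, 895 and 775. Nuclei of clusters that met the rules of no class, left unnamed, were 11.2% and 14.3% of the libraries. Motor neuron markers summed to 1.14 and 1.18 CPM (UMIs per 1000000 UMIs of the set of nuclei) in inhibitory-like nuclei, while the fibroblast marker Col1a1 had no UMI in either neuron class. With 1 library per group nothing below rests on replicates, and the intervals in brackets (95%) cover counting error only, neither mice nor the sampling of unlike nuclei.

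On mm10 the 4 measured genes are all long and mostly intronic. Fam19a1 (ENSMUSG00000059187) spans 544 kb on chromosome 6, from 96113154 to 96657198 on the plus strand, with exons over 0.775% of that length. Fam19a4 (ENSMUSG00000046500) lies on the same chromosome on the minus strand, from 96831203 to 97060413. The 3' ends of the pair face each other across 174 kb that hold 0 protein-coding genes. Fam19a2 (ENSMUSG00000044071) runs over 477 kb of chromosome 10 (123263996 to 123741204, plus strand) and Fam19a5 (ENSMUSG00000054863) over 215 kb of chromosome 15 (87544299 to 87759364, plus strand).

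The start regions of these genes differ in base composition, and those of Fam19a1, Fam19a2 and Fam19a5 are shown because these are the 3 members with enough UMIs for the comparisons that follow. Each sequence is the stretch upstream of the gene's start in RefSeq (GRCm38.p6), on the strand of the gene, at chr6:96112904-96113153, chr10:123263826-123263995 and chr15:87544049-87544298, with CG dinucleotides in capitals.
Fam19a1: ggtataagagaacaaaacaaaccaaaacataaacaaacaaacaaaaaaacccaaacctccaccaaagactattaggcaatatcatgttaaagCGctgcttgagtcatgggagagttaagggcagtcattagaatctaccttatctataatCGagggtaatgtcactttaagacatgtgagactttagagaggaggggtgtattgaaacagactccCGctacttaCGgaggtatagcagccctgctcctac
Fam19a2: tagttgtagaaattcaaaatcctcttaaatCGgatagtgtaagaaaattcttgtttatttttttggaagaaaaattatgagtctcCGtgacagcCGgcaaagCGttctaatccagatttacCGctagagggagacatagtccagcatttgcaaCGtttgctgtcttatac
Fam19a5: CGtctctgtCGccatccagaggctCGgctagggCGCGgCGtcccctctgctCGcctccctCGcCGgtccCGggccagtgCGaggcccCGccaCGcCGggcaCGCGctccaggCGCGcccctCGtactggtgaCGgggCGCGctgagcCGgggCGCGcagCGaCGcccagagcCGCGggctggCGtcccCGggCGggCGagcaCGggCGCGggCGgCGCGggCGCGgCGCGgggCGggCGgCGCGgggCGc
In the 250 bases before its start Fam19a1 has 4 CG dinucleotides and 40.8% G or C, and Fam19a2 has 6 and 38.8%, of which 170 bases are printed because the annotated gene begins within the window. Fam19a5 has 48 and 83.6%, a CG count reached by 0.186% of the 32851 start regions in the table. The median start region has 6. Fam19a4 has 13. The letters TATAAA, searched on both strands, occur in none of these windows and in 12.4% of all windows of that length. These letters are given only as a description.

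Fam19a1 was by far the most abundant member and marked excitatory-like nuclei. Its level there was 2244 CPM (2212 to 2277) in the naive and 2476 CPM (2443 to 2510) in the injured library. In inhibitory-like nuclei it was 14.5 CPM (12.8 to 16.4) and 19.5 CPM (17.5 to 21.7). The ratio of these levels was 154 (136 to 175) in naive and 127 (114 to 141) in injured nuclei, log2 values of 7.27 and 6.99. The inhibitory-like class leaves out unnamed cluster 3, described further on, whose transmitter genes are inhibitory. Cluster 3 held 366 naive and 358 injured Fam19a1 UMIs, against 255 and 347 in the whole class, so the ratios would be lower with it. With class taken from the transmitter genes of each nucleus in place of its cluster, the log2 values were 4.95 and 4.69. The inhibitory-like level is of the size that free RNA may give, as described further on, so these ratios describe UMIs and are not read as ratios of expression. At least 1 Fam19a1 UMI was found in 96.2% (94.7 to 97.4) of naive and 96.9% (95.4 to 98.0) of injured excitatory-like nuclei, and the median nucleus held 17 and 24. The same share in inhibitory-like nuclei was 7.16% (6.18 to 8.25) and 8.55% (7.40 to 9.83). Thinned to 3000 UMIs per nucleus, which removes the depth difference, the shares were 91.7% and 92.0% of excitatory-like and 3.40% and 3.85% of inhibitory-like nuclei, with 26 naive and 12 injured inhibitory-like nuclei below that depth and left out.

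Fam19a2 was the second most abundant member in excitatory-like nuclei, but the rarest of the 3 well-counted members by share of nuclei there. Its level was 146 CPM (138 to 155) naive and 204 CPM (195 to 214) injured in excitatory-like nuclei. In inhibitory-like nuclei it was 26.6 CPM (24.3 to 29.2) and 45.9 CPM (42.8 to 49.2). The excitatory-like level was 5.48 times (4.92 to 6.11) and 4.45 times (4.09 to 4.84) the inhibitory-like one, log2 values of 2.45 and 2.15, which were 1.87 and 1.56 with class from the transmitter genes of each nucleus. A Fam19a2 UMI was seen in 32.3% and 36.6% of excitatory-like nuclei and in 6.92% and 8.51% of inhibitory-like nuclei, so most nuclei of either class held none.

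Fam19a5 was the most evenly spread member. In excitatory-like nuclei its level was 98.8 CPM (92.1 to 106) naive and 95.4 CPM (89.0 to 102) injured. In inhibitory-like nuclei it was 37.4 CPM (34.6 to 40.4) naive and 38.4 CPM (35.6 to 41.4) injured. The ratio between classes was 2.64 (2.38 to 2.93) in naive and 2.48 (2.24 to 2.75) in injured nuclei. Its UMIs came in ones and few: the highest count in any neuron-like nucleus of these classes was 8, against 120 for Fam19a1 and 46 for Fam19a2. A UMI was seen in 55.3% and 58.8% of excitatory-like and in 20.7% and 22.9% of inhibitory-like nuclei.

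Fam19a4, which in sensory ganglia marks unmyelinated low-threshold touch neurons, was close to the limit of counting. It had 32 naive and 29 injured UMIs in excitatory-like nuclei (3.94 and 3.38 CPM) and 21 and 30 in inhibitory-like nuclei (1.20 and 1.69 CPM). No nucleus of either class held more than 2. Its counts were too few for a ratio between libraries, for which 100 UMIs were required. Beside its neighbour Fam19a1 the contrast was wide: per kb of gene, the naive excitatory-like levels were 4.13 CPM for Fam19a1, 0.306 for Fam19a2, 0.460 for Fam19a5 and 0.0172 for Fam19a4. On that scale Fam19a5 lay above Fam19a2, the reverse of their order by CPM. Division by the whole gene length presumes that intronic reads were counted, which is not given in the sources used here.

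**Figure D1:**
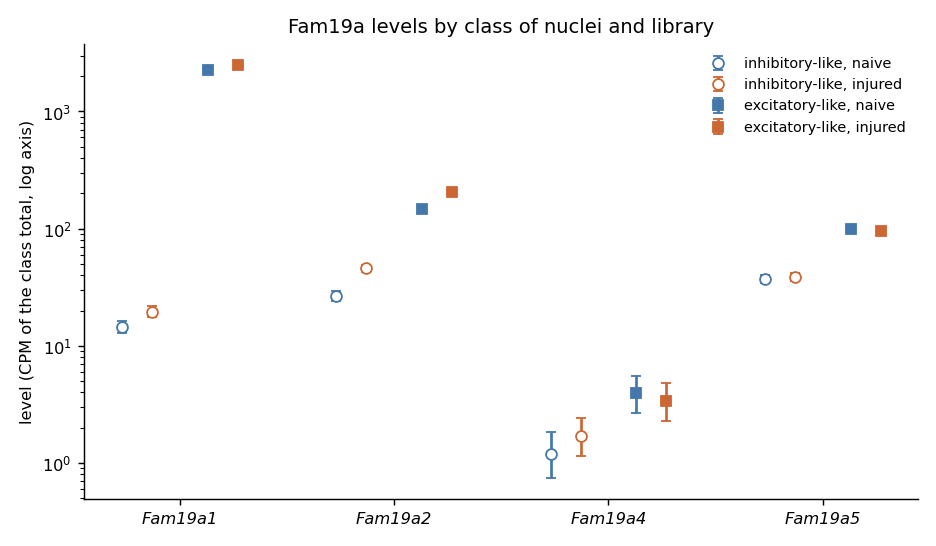
Level of each measured Fam19a gene in CPM of the class total (log axis) by class of nuclei and library, with 95% exact Poisson bars. Excitatory-like nuclei (squares) lie above inhibitory-like nuclei (open circles) for each gene, at 2244 against 14.5 CPM for naive Fam19a1 and 98.8 against 37.4 CPM for naive Fam19a5.

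Within the excitatory-like class, Fam19a1 was high in every larger cluster and graded between them. Cluster 0, led by Chst9 and Reln among others, held 2846 CPM (2742 to 2954) naive and 3058 CPM (2954 to 3166) injured. Cluster 2, led by Moxd1 and Prrxl1, was at 2545 and 3086 CPM. Cluster 11, led by Aldh1a2 and Gfra1, was at 2459 and 2639 CPM. Below these came cluster 1 (Tacr1, Calb1) at 2062 and 2225 CPM, cluster 22 (Tac1, Cck, Bdnf) at 1734 and 1723 CPM, and cluster 21 (Esr1, Th, Tac2) at 1475 and 1633 CPM. Clusters 2 and 11 did not differ beyond their counting intervals in the naive library, and clusters 0 and 2 did not in the injured library. The excitatory-like parts of cluster 10 were lowest of those with at least 30 nuclei per library, at 509 CPM (442 to 583) and 720 CPM (653 to 792).

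Slc17a6 and Fam19a1 did not always go together. Unnamed cluster 3, whose inhibitory transmitter genes stood at 1089 CPM against 5.58 CPM of Slc17a6, carried Fam19a1 at 343 CPM (309 to 380) in 122 naive nuclei and 396 CPM (356 to 439) in 88 injured nuclei. It was left unnamed because Ebf2, listed as an excitatory marker, was among its 10 leading genes. There, 71.3% of naive and 84.1% of injured nuclei held a Fam19a1 UMI. Fam19a1 UMIs outnumbered Slc17a6 UMIs 52.3 to 1 (25.1 to 131) in naive nuclei of cluster 3, against 10.1 to 1 (9.61 to 10.6) in the excitatory-like class.

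Inhibitory-like clusters held Fam19a1 at low levels. Cluster 12, led by the neurokinin B precursor Tac2 and by Adamts9, was the highest of the 11 with at least 30 nuclei in each library, at 67.2 CPM (52.4 to 84.9) naive and 118 CPM (99.6 to 140) injured. The others lay between 3.83 and 28.8 CPM in the naive and between 5.55 and 43.9 CPM in the injured library. In oligodendrocyte-like nuclei, a cell type taken here as a view of free RNA, Fam19a1 had 0 UMIs in 42 naive nuclei, which allows a level of up to 28.8 CPM (3 counts) and a share of up to 7.14% of nuclei with a UMI. It had 3 UMIs in 45 injured nuclei (21.6 CPM, 4.46 to 63.2), which is 6.67% of them. Median depths there were 2147 and 2593 UMIs, below those of neurons. The low inhibitory-like levels are of that size and are not read as expression, and cluster 12 lies above it. Over the inhibitory-like clusters other than 7, 10, 12 and 19, Fam19a1 stood at 8.09 and 7.44 CPM and outnumbered Slc17a6 by 2.10 to 1 (1.49 to 2.98) and 2.02 to 1 (1.41 to 2.93). Inhibitory-like nuclei that carried Xist together with Y-linked UMIs, among which are doublets and nuclei with free RNA, held Fam19a1 at 42.2 and 48.8 CPM, and were 3.88% and 4.16% of that class. The part of free RNA and doublets in the low values was not tested.

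Fam19a2 was concentrated in a smaller set of nuclei, with another order of clusters. Its highest levels were in the excitatory-like parts of cluster 10, at 696 CPM (617 to 781) naive and 698 CPM (633 to 769) injured, and in cluster 22, which held 511 CPM (452 to 576) naive and 750 CPM (678 to 827) injured. Cluster 0 followed at 276 and 399 CPM, and cluster 21 at 128 and 240 CPM. Clusters 2, 1 and 11, which make up much of the class and are rich in Fam19a1, held 84.4 and 87.7, 57.9 and 30.9, and 20.8 and 34.8 CPM. The clusters richest in Fam19a2, cluster 22 and the parts of cluster 10, were thus at the lower end of the class for Fam19a1. Cluster 0, the highest in naive Fam19a1, still carried 23.0% and 23.9% of the class's Fam19a2 UMIs, beside 22.7% and 22.8% in cluster 22.

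Among inhibitory-like nuclei, Fam19a2 UMIs sat in 2 places. The inhibitory-like parts of cluster 10 held 298 CPM (265 to 334) naive and 367 CPM (337 to 399) injured, in 115 and 127 nuclei. They made up 4.60% and 6.0% of the class but carried 63.6% and 68.5% of its Fam19a2 UMIs. Cluster 19, led by Pax5, Cdh9 and Rxfp2, was at 73.2 CPM (57.9 to 91.2) and 166 CPM (143 to 191) and carried 16.9% and 23.7%. Among the remaining inhibitory-like clusters only cluster 12 reached 20 CPM in a library, in the naive one. In oligodendrocyte-like nuclei Fam19a2 had 1 UMI in the naive library (2.38% of nuclei) and 0 in the injured one, which allows up to 6.67% of nuclei.

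The parts of cluster 10, a cluster with transmitter genes of both kinds, were not alike. Its unnamed parts, 159 naive and 183 injured nuclei, held Fam19a2 at 317 CPM (290 to 346) and 337 CPM (314 to 361). They carried 512 and 809 Fam19a2 UMIs, against 467 and 816 in the whole inhibitory-like class. Parts 10d, 10k and 10l, which share Pcdh11x among their leading genes, held Fam19a2 at 457, 405 and 581 CPM in naive nuclei. In injured nuclei they held 593, 376 and 597 CPM, while Fam19a1 stayed at 38.8 CPM or less in both libraries. Part 10g, in the same class and also with Pcdh11x among its leading genes, had only 1 and 3 Fam19a2 UMIs. Part 10i, led by Foxp2, was at 82.3 CPM (52.7 to 123) and 197 CPM (161 to 239), and part 10e at 400 CPM (289 to 539) and 157 CPM (91.5 to 251). Of the excitatory-like parts, 10a, with Piezo2 and Reln in the lead, held 792 and 1039 CPM. The lettered parts named here have 11 to 37 nuclei per library. Some have Fam19a2 among their leading genes, although the gene took no part in the clustering.

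Fam19a5 followed neither pattern. It was near 100 CPM in several excitatory-like clusters (105 and 109 CPM in cluster 11, 98.4 and 95.6 CPM in cluster 2), in inhibitory-like cluster 12 (107 and 111 CPM) and in the inhibitory-like parts of cluster 10 (81.3 and 94.6 CPM). CSF-contacting neuron-like nuclei, marked by the channel gene Pkd2l1, held 144 CPM (114 to 179) in 106 naive and 97.4 CPM (66.2 to 138) in 48 injured nuclei. Of the clusters with at least 30 nuclei in each library, the inhibitory-like clusters 14 (5.73 and 9.12 CPM) and 6 (5.62 and 5.87 CPM) were lowest. Oligodendrocyte-like nuclei also held it, in 16.7% and 24.4% of nuclei, with levels of 67.2 CPM (27.0 to 139) naive and 86.6 CPM (44.7 to 151) injured, above the levels in clusters 6 and 14, so a free-RNA share taken from those nuclei cannot be used for this gene.

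**Figure D2:**
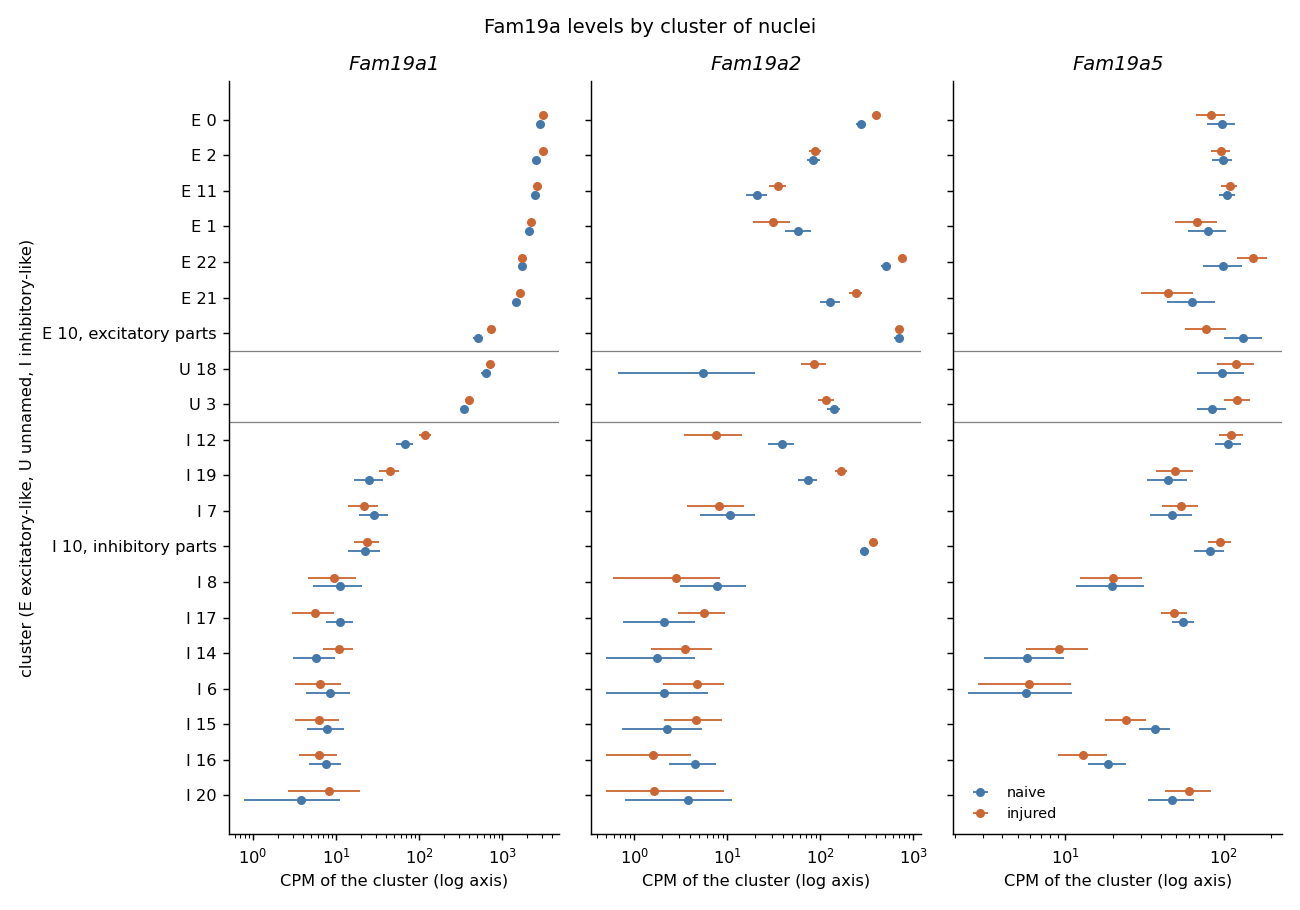
Fam19a1, Fam19a2 and Fam19a5 in CPM of each cluster (log axes) in naive and injured nuclei, with 95% exact Poisson bars, cut at the left edge where they go below 0.5 CPM, for clusters with at least 30 nuclei in each library. Fam19a1 separates the excitatory-like from the inhibitory-like clusters with cluster 3 at 343 and 396 CPM in between, Fam19a2 peaks in clusters 22 and 10 in both classes, and Fam19a5 is spread over both.

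The members met in single nuclei to different extents. In excitatory-like nuclei thinned to 3000 UMIs, 17.0% of naive and 19.8% of injured nuclei held UMIs of both Fam19a1 and Fam19a2, and Fam19a1 was found in 80.9% and 82.7% of the nuclei with Fam19a2, against 91.7% and 92.0% of all thinned excitatory-like nuclei. In cluster 22 both genes were found together in 61.4% and 60.7% of nuclei. In inhibitory-like nuclei 6 naive and 6 injured nuclei held both. In the inhibitory-like parts of cluster 10, Fam19a1 was found in 2.13% of the naive and 5.0% of the injured nuclei with Fam19a2.

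Over 22 neuron-like clusters, the genes whose log2(CPM + 1) was most like that of Fam19a1 in the naive library, among 7251 genes, were Slc17a6 (Pearson r of 0.94 naive and 0.88 injured), the calcium channel subunit Cacna2d1 (0.91 and 0.94), the zinc transporter Tmem163 (0.91 and 0.89), the transcription factor Lmx1b (0.89 and 0.81) and Nrn1 (0.88 and 0.90). Slc17a6 set the excitatory-like class and Cacna2d1 and Lmx1b were on its marker list. Fam19a2 was most like Larp1b (0.93 and 0.78), the RNA-binding protein gene Stau2 (0.89 and 0.83), Hspa4l (0.88 and 0.74), Slc25a13 (0.88 and 0.68) and the mitochondrial pyruvate carrier gene Mpc1 (0.87 and 0.84). Among the genes nearest to Fam19a5 were Akap12 (0.91 and 0.88), the GABA-A receptor subunit gene Gabra4 (0.90 and 0.84), Cxxc4 (0.89 and 0.83) and the neurotrophin-3 receptor gene Ntrk3 (0.89 and 0.83). Among themselves Fam19a1, Fam19a2 and Fam19a5 had r of 0.64 to 0.67 in naive clusters. Clusters of a library share its depth and free RNA, so these values only describe.

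Set beside the neuropeptide genes, Fam19a1 was most like Adcyap1, the precursor of PACAP (0.85 and 0.86 in naive and injured clusters). All 3 members ran opposite to Pnoc, the nociceptin precursor, with -0.83 and -0.87 for Fam19a1, -0.77 and -0.86 for Fam19a2, and -0.55 and -0.62 for Fam19a5. They also ran opposite to galanin, with -0.61 and -0.65 for Fam19a1, -0.77 and -0.67 for Fam19a2, and -0.80 and -0.79 for Fam19a5. Against Pdyn itself the r of Fam19a1 was -0.08 and -0.05.

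Between libraries, the difference in the family lay mainly in Fam19a2. In inhibitory-like nuclei its injured level was 1.72 times (1.54 to 1.94) the naive one, the fifth highest of the 12653 genes that had 100 UMIs or more. In excitatory-like nuclei the ratio was 1.40 (1.30 to 1.51), number 49 of 11077 genes. A level at least 25% higher in the injured library was found for 2.28% of genes in inhibitory-like and 1.75% in excitatory-like nuclei. Of the 3 members measured, 2 passed that limit in inhibitory-like and 1 in excitatory-like nuclei. None was at least 20% lower, as 12.2% and 13.8% of genes were. These ratios are part of why the family was chosen, and nothing is read from the counts.

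Fam19a1 differed less. In inhibitory-like nuclei its ratio was 1.34 (1.14 to 1.58), on 255 and 347 UMIs, and in excitatory-like nuclei 1.10 (1.08 to 1.13), on 18237 and 21230 UMIs. Few inhibitory-like nuclei held at least 5 Fam19a1 UMIs, 4 naive and 13 injured, and these carried 12.5% and 38.0% of the UMIs. The inhibitory-like level is of the size that free RNA may give, and doublets were kept. Fam19a5 had ratios of 1.03 (0.922 to 1.15) and 0.966 (0.875 to 1.07), and both intervals include 1. Without cluster 12 the log2 ratio of Fam19a1 in inhibitory-like nuclei was 0.15 in place of 0.43, since that cluster alone went from 70 to 141 UMIs, and without cluster 2 the excitatory-like log2 ratio was 0.068 in place of 0.14.

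Gene length moved with these ratios. Genes of at least 200 kb, a limit set after the lengths of the 4 measured members were known, had a median log2 ratio of 0.09 in inhibitory-like and 0.08 in excitatory-like nuclei, against -0.08 in both classes over all genes. At least 25% higher were 7.60% and 3.01% of the long genes. Fam19a1 in excitatory-like nuclei, at a log2 ratio of 0.14, was number 264 of 929 long genes, and in inhibitory-like nuclei number 32 of 960. Fam19a5 was number 643 of 960 in inhibitory-like and number 801 of 929 in excitatory-like nuclei. Fam19a2 was number 3 of 960 in inhibitory-like and number 8 of 929 in excitatory-like nuclei. Whether length has a part in the members' ratios was not tested.

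**Figure D3:**
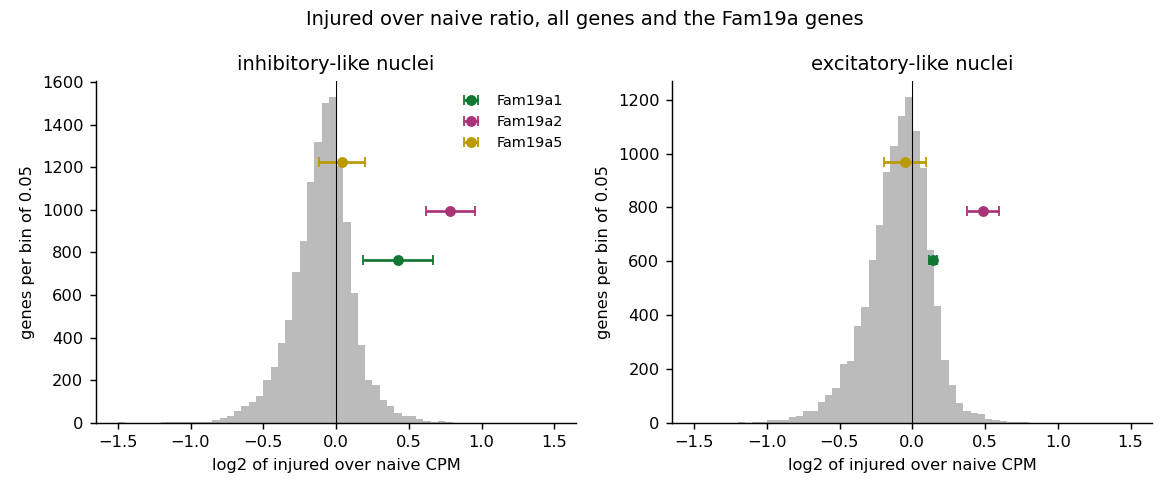
Histogram of the log2 ratio of injured over naive CPM over all genes that reached 100 UMIs in the class (12653 and 11077 genes), with the 3 countable Fam19a genes as points with 95% bars. Fam19a2 lies at 0.79 and 0.49, to the right of nearly all genes, and the bars of Fam19a5 span 0.

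Most Fam19a2 UMIs of the inhibitory-like class lay in few clusters, and the class was split by them only as a description. In the inhibitory-like parts of cluster 10 and cluster 19 together, taken after their values were seen, the level was 181 CPM (163 to 200) naive and 280 CPM (260 to 301) injured. In all the rest of the class, 2260 naive and 1879 injured nuclei, the naive level was 5.89 CPM (4.74 to 7.23) from 91 UMIs and the injured level 4.24 CPM (3.27 to 5.42) from 64 UMIs, a ratio of 0.721 with an interval from 0.515 to 1.0. These levels are below the 28.8 and 21.6 CPM that 3 counts give in oligodendrocyte-like nuclei, so nothing is read from that ratio. Cluster 12, part of that rest, was lower in the injured library, with 40 naive and 9 injured UMIs (38.4 and 7.56 CPM). Without cluster 12 the rest stood at 3.54 and 3.96 CPM, a ratio of 1.12 (0.751 to 1.67), again below those 3-count levels. The parts of cluster 10 also made up more of the class in the injured library, 8.57% of its UMIs against 5.68% in the naive one, which the class ratio includes. With clusters weighted alike in naive and injured nuclei, the log2 ratio was 0.52 in place of 0.79.

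By cluster, the ratio of Fam19a2 was 2.27 (1.74 to 2.99) in cluster 19, 1.88 (1.41 to 2.52) in cluster 21, 1.67 (1.20 to 2.35) in cluster 11, 1.47 (1.3 to 1.72) in cluster 22 and 1.44 (1.24 to 1.69) in cluster 0. It was 1.23 (1.07 to 1.42) in the inhibitory-like parts of cluster 10. No such difference was seen in the excitatory-like parts of cluster 10 (1.0, 0.861 to 1.17) or in cluster 2 (1.04, 0.841 to 1.29). The unnamed parts of cluster 10 had a ratio of 1.06 (0.948 to 1.19), and cluster 10 taken whole 1.09 (1.01 to 1.18). In cluster 11 a single injured nucleus held 46 of the 93 UMIs, and in unnamed cluster 18, which went from 2 to 41 UMIs, 1 nucleus held 24.

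**Figure D4:**
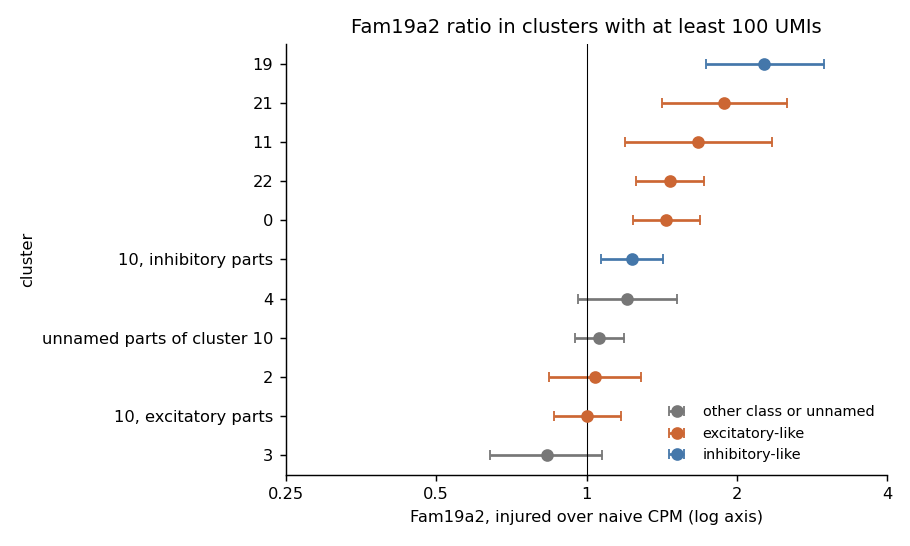
Ratio of injured over naive Fam19a2 CPM (log axis) with 95% exact conditional intervals, for clusters with at least 100 Fam19a2 UMIs and 30 nuclei per library. The ratio runs from 0.832 in unnamed cluster 3 to 2.27 in inhibitory-like cluster 19, and is 1.0 in the excitatory-like parts of cluster 10.

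The injured library had a higher share of positive nuclei in both classes and more UMIs per positive nucleus, and at equal depth the intervals of the shares overlapped. On raw counts, which are not matched for depth, nuclei with at least 5 Fam19a2 UMIs were 29 of 2499 naive (1.16%) and 71 of 2116 injured (3.36%) in the inhibitory-like class. In the excitatory-like class they were 94 of 895 (10.5%) and 138 of 775 (17.8%). Thinned to 3000 UMIs, a UMI was found in 4.0% (3.27 to 4.85) of naive and 4.99% (4.10 to 6.01) of injured inhibitory-like nuclei. In excitatory-like nuclei the thinned shares were 21.0% (18.4 to 23.8) and 23.9% (21.0 to 27.1). At that depth positive nuclei held on average 1.62 and 1.88 UMIs in inhibitory-like and 2.11 and 2.51 in excitatory-like nuclei.

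The pools held both sexes, which allows a look at nuclei from different mice. In nuclei with only Xist UMIs, Fam19a2 in the inhibitory-like class was at 31.6 CPM (28.3 to 35.1) naive and 52.3 CPM (48.1 to 56.7) injured. The set with only Y-linked UMIs held 14.8 CPM (11.6 to 18.5) naive and 33.4 CPM (28.8 to 38.5) injured. Injured nuclei were higher in both sets, and the Xist set was higher than the Y-linked set in both libraries. The clusters that carried the difference were not the same in the Xist and Y-linked sets, as given below. In the excitatory-like class the Xist set held 164 and 201 CPM and the Y-linked set 97.1 and 235 CPM, so the order of the sets differed between libraries.

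**Figure D5:**
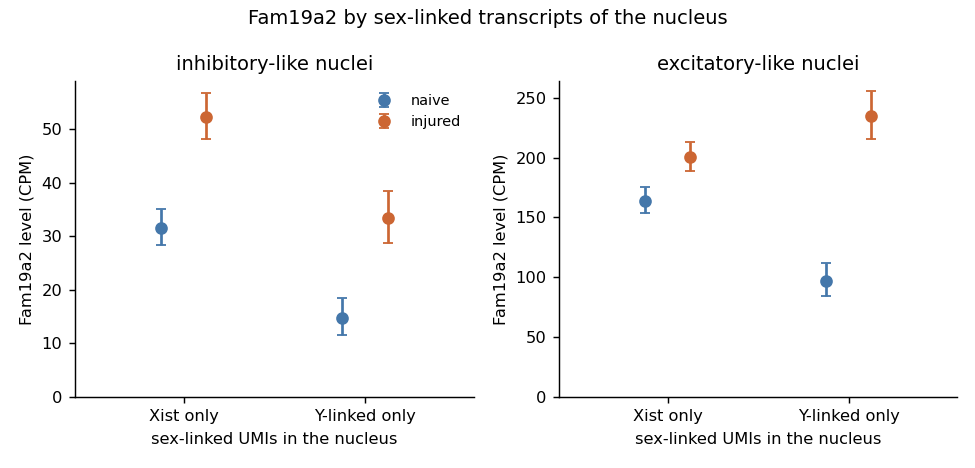
Fam19a2 level (CPM) in inhibitory-like and excitatory-like nuclei that hold only Xist or only Y-linked UMIs, by library, with 95% exact Poisson bars. Injured nuclei lie above naive nuclei in each of the 4 pairs, most in the Y-linked excitatory-like set (97.1 and 235 CPM).

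Single clusters were less even between the sets. In the inhibitory-like parts of cluster 10, the Xist set held 358 CPM (315 to 405) naive and 377 CPM (341 to 415) injured. The Y-linked set there, with 23 and 26 nuclei, held 111 CPM (71.0 to 165) and 379 CPM (315 to 453). In cluster 19 the Xist set went from 46.3 CPM (32.1 to 64.7) to 186 CPM (156 to 221), while the Y-linked set, with 25 and 30 nuclei, stood at 123 CPM (79.8 to 182) naive and 132 CPM (96.3 to 177) injured. In cluster 11 the Xist set was lower in the injured library, at 24.8 and 13.5 CPM. The Y-linked set of that cluster went the other way, with 5.80 CPM from 4 naive UMIs and 80.9 CPM from 64 injured UMIs. A single nucleus held 46 of those 64 UMIs. Cluster 22 was higher in both sets (502 and 782 CPM, 417 and 714 CPM), and so was cluster 0 (302 and 383 CPM, 169 and 377 CPM). With 1 pool each, differences between mice and between groups cannot be told apart.

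Of 5 markers of oligodendrocyte precursors, 3 were measured. Of these, 2 (Vcan and Tnr) were at least 25% higher in injured inhibitory-like nuclei, as 2.28% of all genes were, and none was in excitatory-like nuclei, beside 1.75% of all genes. The list summed to 345 and 417 CPM in the former and 768 and 911 CPM in the latter. The defining markers Pdgfra and Cspg4 were near 0, with at most 8 UMIs in a class and library. Nearly all of the sum came from Lhfpl3 and Tnr. The part of these cells in the Fam19a2 ratio was not tested.

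Of the genes reported to bind a Fam19a protein, 5 of 9 could be measured in each class. None of them was at least 25% higher or 20% lower in inhibitory-like nuclei. In excitatory-like nuclei 1 of the 5 was at least 20% lower, beside 13.8% of all genes, and none 25% higher. Nrxn3, a presynaptic neurexin, was the most abundant in inhibitory-like nuclei (8536 and 9185 CPM) and was at 1553 and 1650 CPM in excitatory-like nuclei, so its level over classes ran opposite to that of Fam19a1. Nrxn2 was at 178 and 156 CPM in inhibitory-like and 177 and 158 CPM in excitatory-like nuclei. The excitatory-like exception was Lrrc4b, an adhesion protein of the postsynapse, at 61.7 and 46.5 CPM (ratio 0.755, 0.660 to 0.863). Lrp1 was at 91.2 and 76.6 CPM in that class. The receptor gene Fpr1 had 25 and 21 UMIs there and Gpr1 17 and 7, too few for a ratio.

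Classical chemokine genes were sparse in these nuclei. Of 49 genes on the list (ligands, receptors and chemokine-like factors), 26 were among the genes of the deposited counts. Of these, 10 were measured in inhibitory-like and 8 in excitatory-like nuclei. In inhibitory-like nuclei 1 was at least 25% higher, Ccl28 (3.14 and 4.17 CPM, ratio 1.33, 0.924 to 1.92), beside 2.28% of all genes, and none was 20% lower. In excitatory-like nuclei 1 was at least 20% lower, the decoy receptor gene Ackr1 (8.00 and 5.13 CPM, ratio 0.642, 0.427 to 0.955), beside 13.8% of all genes, and none was 25% higher. A share of 1 in 8 or 1 in 10 on so few genes is not read as a result about the list. Cx3cl1, the neuronal ligand of a microglial receptor, was at 51.4 and 43.3 CPM in inhibitory-like nuclei, and Ccl25 at 72.0 and 72.1 CPM in excitatory-like nuclei. The median log2 ratio of the measured genes was -0.09 in inhibitory-like and -0.12 in excitatory-like nuclei, beside -0.08 for all genes in each class.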

How the data were processed

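Single nuclear RNA of GFP-sorted Pdyn-lineage nuclei was measured in 2 pooled libraries. The table the authors deposited holds UMI counts per gene and nucleus, made with Cell Ranger 3.0.2 and Seurat on mm10, per the submitters' processing notes. Whether intronic reads were counted is not given in the sources used here. Natural log values, which the authors deposited per library, gave each nucleus its library and 1 alternative, and match ln(1 + x) with x the count per 10000 UMIs of the nucleus. All deposited nuclei were kept, and doublets were not removed.

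Nuclei were clustered together in scanpy 1.11.5 (2000 variable genes, 30 components, 15 neighbours, Leiden resolution 1.0). Left out were 67 genes: the Fam19a genes and the listed neuropeptide, Y-linked, X-inactivation, immediate early, heat shock and mitochondrial genes. A cluster was inhibitory-like where its inhibitory transmitter genes were at least 10 times Slc17a6, excitatory-like where Slc17a6 was at least 4 times them, and needed 3 markers with a UMI in 5% of nuclei. A cluster stayed unnamed where markers of another class led its 10 leading genes. Cluster 10, which had transmitter genes of both kinds, was clustered again on its own into lettered parts, each named by the same rules. Parts of under 20 nuclei stayed unnamed. These thresholds were set after the data were seen, and classes may differ from those of the study.

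Counts were summed per class and library and scaled to CPM, with exact Poisson, Clopper-Pearson and conditional binomial intervals at 95%. There was no test between groups. Ratios needed 100 UMIs, and called means at least 25% higher or 20% lower. The ratio step was tested on simulated counts. Named genes were the members, the 5 genes most like each member with at least 1000 UMIs, the measured partners and the extremes of the chemokine list. Some genes that this rule names are not reported here. Members and lists were chosen with earlier results of these data known. Start sequences are from RefSeq, by symbol, with 4 of 4 measured members matched.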

Additional observations from a re-analysis of the deposited data

Results flagged for a closer look

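Fam19a1 was seen in glia-like nuclei, which take part in no comparison above, at levels over those of most inhibitory-like clusters. In ependymal-like nuclei, which also carried astrocyte markers, it was at 212 CPM in the naive (35 UMIs in 54 nuclei) and 245 CPM in the injured library (63 UMIs in 47 nuclei). A single nucleus held 77.1% and 46.0% of those UMIs. In oligodendrocyte precursor-like nuclei it was at 753 CPM in 2 naive nuclei (6 UMIs) and 475 CPM in 7 injured nuclei (14 UMIs), and no nucleus of that set held a Slc17a6 UMI. The number of nuclei limits both values, and the part of doublets and free RNA in them was not tested.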

How the results depend on the processing

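No paired analysis was possible because each group has 1 library. Over 25 alternatives for inhibitory-like and 21 for excitatory-like nuclei, the injured over naive log2 ratios of Fam19a1 and Fam19a2 were above 0 in each, while that of Fam19a5 kept its sign in 21 of 25 and 16 of 21. For Fam19a2 in inhibitory-like nuclei (0.79) the value was 0.54 with the same weight for each nucleus, 0.52 with the same weight for each cluster, 0.47 without the 10% of nuclei with most UMIs, 1.18 in nuclei with Y-linked UMIs only, 0.53 thinned, 0.58 with class from each nucleus's own transmitter genes, 0.59 and 0.56 at Leiden resolutions 0.5 and 2.0, and 0.57 with cluster 3 added, a choice made after seeing the data. In excitatory-like nuclei (0.49) it was 0.29 in Xist-only nuclei, 1.27 in Y-linked-only nuclei and 0.27 with own transmitter genes. Fam19a1 in inhibitory-like nuclei (0.43) was 0.15 without cluster 12 and 0.18 with cluster 3 added. In excitatory-like nuclei (0.14) it was 0.22 with median scaling, 0.19 without the deepest nuclei, 0.097 in Y-linked-only nuclei, 0.095 with own transmitter genes, 0.068 without cluster 2 and 0.18 without cluster 11. Fam19a5 in excitatory-like nuclei (-0.05) was 0.19 in Y-linked-only nuclei. The log2 ratio of excitatory-like over inhibitory-like levels with own transmitter genes was 4.95 naive and 4.69 injured for Fam19a1 (7.27 and 6.99), 1.87 and 1.56 for Fam19a2 (2.45 and 2.15), and 1.03 and 1.01 for Fam19a5 (1.40 and 1.31). Thinned, it was 7.16 for injured Fam19a1, 2.78 and 2.68 for Fam19a2 and 1.54 for injured Fam19a5. The cause of these shifts was not tested. Median scaling moves all log2 ratios by 0.07 in inhibitory-like and 0.08 in excitatory-like nuclei. Genes at least 25% higher numbered 289 and 194 at 100 UMIs and 1058 and 833 at 20 UMIs, and those past 1.5-fold 35 and 19. Downward, 1547 and 1529 became 2529 and 2800 at 20 UMIs and 266 and 285 at 1.5-fold. Pools of 8 mice give no spread between mice, and Fam19a4 was limited by its UMI number.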
